A study of Homo sapiens with 7 samples.

Results

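Binding of the vitamin D receptor (VDR) was examined in 1 stretch of the short arm of chromosome 1, chr1:40000000-45000000 in hg19, in THP-1, an established human cell line of monocytic leukaemia origin. All peaks whose start lay in this 5 Mb window were taken from 6 peak lists and joined into 1 site wherever they overlapped by 1 bp or more. This gave 689 peaks and 382 sites, out of 77132 sites in the lists as far as they run. Cells of this 1 line had been treated for 8 h with 100 nM 1α,25-dihydroxyvitamin D3 (1,25D), the hormone that VDR binds, or with the solvent, 0.1% ethanol (EtOH). There were 3 libraries per treatment, made by ChIPmentation, in which antibody-bound chromatin is tagged with sequencing adapters by a transposase. Lists of the 1,25D libraries are called hormone lists and those of the EtOH libraries solvent lists. The labels do not say that replicates came from separate cultures. The unit of the p-values here is therefore the library, and differences between libraries may be technical.

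The window had been chosen by a measured value, the number of sites found in every hormone list, which was higher than in other windows of this size. That number and the folds of those sites are therefore given as a description and not tested. Each peak carries the authors' fold enrichment (peak signal over the caller's background) and p-value, and no read counts are given, so the depth behind a peak is unknown. A site missing from a list was not called there, which does not show that VDR was absent. The lists held 3647 to 33820 peaks, with EtOH replicate 2 the longest. The 3 lists that stop in mid-line do so after chromosome 1, so all 6 cover the window. These totals depend in part on where a list stops. Over the part of the genome that all 6 lists cover, they held 3647 (1,25D replicate 2) to 11317 peaks (EtOH replicate 2). The highest p-value listed was 0.00433 in 1,25D replicate 1 and 0.00431 in EtOH replicate 1, against 0.00978 to 0.00997 in the rest.

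VDR is a nuclear receptor that binds DNA together with the retinoid X receptor, typically at 2 copies of a short half-site 3 bases apart, and many of its binding sites gain occupancy when the hormone is present. In monocytic cells it controls genes of innate defence and differentiation. The gene named in the choice of this window is MYCL, which encodes a transcription factor of the MYC family. Other genes of this part of the short arm are TRIT1 (a tRNA-modifying enzyme), CAP1 (an actin regulator), PPT1 (a lysosomal thioesterase), NFYC (a subunit of the CCAAT-binding factor NF-Y), SCMH1 (a Polycomb group protein), EDN2 (an endothelin ligand), SLC2A1 (a glucose transporter), CDC20 (an activator of the anaphase-promoting complex) and KDM4A (a histone demethylase). A list of 32 genes from textbook knowledge matched RefSeq in full. In the gene order of GRCh38 it ran from TRIT1 to TMEM53 and spanned 70 protein-coding genes, with MYCL between TRIT1 and MFSD2A. The peaks are in hg19 and no coordinates were converted, so no distance from a site to a gene is given, and whether each listed gene lies inside the limits was not tested.

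Because the genome of the lists' build was not used here, the sequences under the peaks are not shown. Promoters from RefSeq (GRCh38.p14), the 250 bases before the gene start, are shown for MYCL, the gene that names the window, and for its neighbour on the list CAP1, to show what half-sites look like. The half-sites searched on both strands were AGGTCA or AGTTCA or GGGTCA or GGTTCA, and they stand in capitals.

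MYCL: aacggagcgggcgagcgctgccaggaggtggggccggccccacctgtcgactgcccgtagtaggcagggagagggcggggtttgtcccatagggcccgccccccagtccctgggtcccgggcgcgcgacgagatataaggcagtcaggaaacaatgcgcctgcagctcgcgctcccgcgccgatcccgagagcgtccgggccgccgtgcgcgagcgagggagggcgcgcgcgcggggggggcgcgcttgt

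CAP1: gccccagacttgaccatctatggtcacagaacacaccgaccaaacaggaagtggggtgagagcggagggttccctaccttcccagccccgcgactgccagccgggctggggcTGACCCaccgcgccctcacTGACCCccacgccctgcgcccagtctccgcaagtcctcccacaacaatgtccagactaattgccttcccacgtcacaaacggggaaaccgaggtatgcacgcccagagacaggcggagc

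The MYCL promoter held 0 half-sites and this CAP1 promoter held 2, both read on the opposite strand. The table holds 3 promoters of CAP1, with 2, 0 and 1 half-sites, and the one with the most is shown. Of the 41 promoters of the 28 listed genes in the table, 19 (46.3%) held a half-site, against 33.8% of all 35116 promoters of the same length. A pair of half-sites in the same direction 3 bases apart was found in 0 of the 41 and in 23 of all promoters (0.0655%). A match is a description of the letters, and whether a peak covers any of these promoters was not tested.

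Peaks of each library, with and without hormone, were counted in the window and in its flanks. The hormone lists held 123, 88 and 119 peaks there (replicates 1 to 3) and the solvent lists held 106, 125 and 128. The treatments overlapped in number. The 5 Mb below, from 35 to 40 Mb, held 10, 15 and 11 peaks in the hormone lists and 16, 32 and 15 in the solvent lists. The 5 Mb above, from 45 to 50 Mb, held 50, 30 and 35 and 61, 82 and 44. Each library therefore had more peaks in the window than in either flank.

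Relative to the mean of both flanks, the window held 4.10, 3.91 and 5.17 times as many peaks in the hormone lists. The solvent lists did not enter the number behind the choice of the window. Of the 50 sites in all hormone lists, 14 were also in all solvent lists and 19 in 1 or 2. The solvent lists are therefore no independent check. In the solvent lists the ratios were 2.75, 2.19 and 4.34. Their mean on the log2 scale was 1.57 ± 0.50 (SD, n = 3), a ratio of 2.97, with a two-sided exact permutation p of 0.25 by sign flips, the smallest that 3 libraries allow. Any 3 ratios of the same sign give this p, whatever their size, so it is no support for an excess. The mean log2 ratio was 2.60 against the lower flank alone and 0.98 against the upper flank alone. The window held 5.25%, 6.21% and 7.07% of the chromosome 1 peaks of the hormone lists and 4.11%, 2.71% and 4.84% of those of the solvent lists, so the longest list gave it the smallest share. Among 47 windows of chromosome 1 that held a site, it ranked 3, 1 and 1 by peak number in the hormone lists and 6, 16 and 6 in the solvent lists. In the solvent lists the window from 215 to 220 Mb (EtOH replicates 1 and 2) or that from 190 to 195 Mb (replicate 3) held the most of all others. The median over the 47 windows was 48, 31 and 34 peaks in the hormone lists and 50, 97 and 46 in the solvent lists. The lower flank lay below this median in every list, so the ratios rest in part on a sparse flank.

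Many peaks of different libraries fell at the same places. Of its 382 sites, 50 (13.1%) were in all 3 hormone lists, against 4.20% of the 28993 sites over the part of the genome that all 6 lists cover. As many as 20 sites were in all 3 solvent lists, where the background share is 1.18%. The flanks held 6 and 9 sites in all hormone lists and 4 and 3 in all solvent lists. Over the 47 windows of chromosome 1 the median was 8 for the hormone lists, with 19 in the next highest window, and 2 for the solvent lists, with 7 in the next highest.

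**Figure D1:**
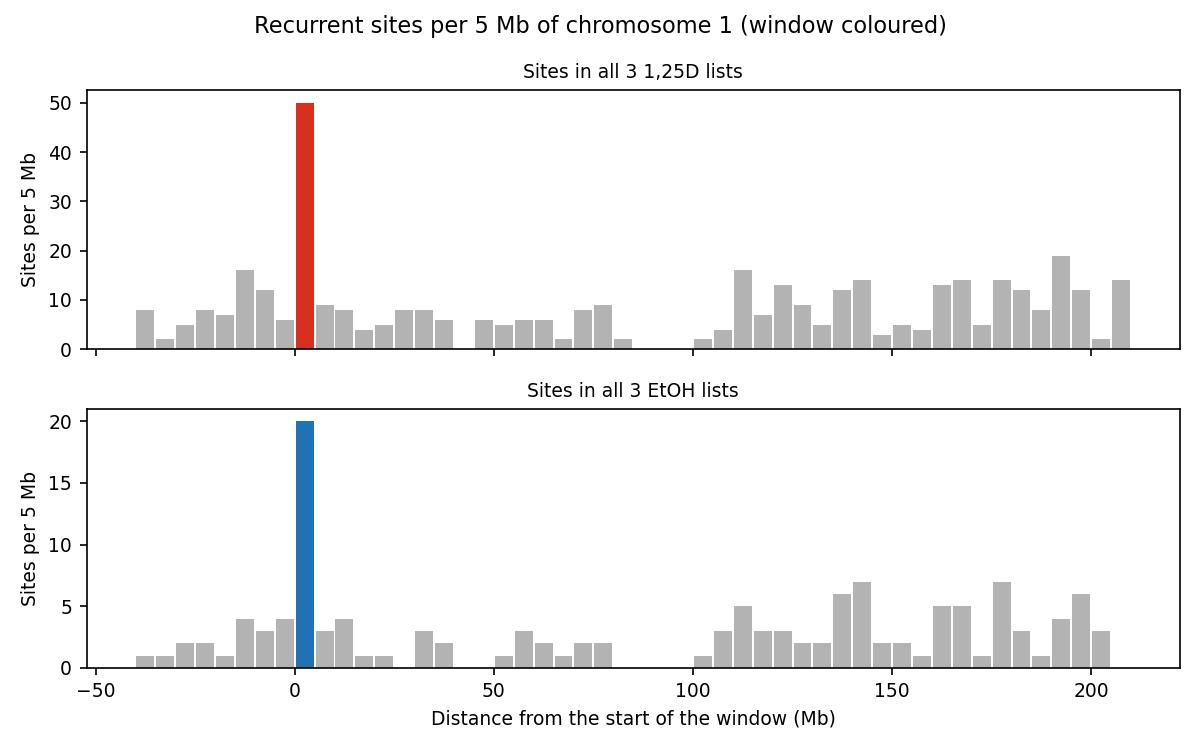
Sites found in all 3 hormone lists (upper panel) and in all 3 solvent lists (lower panel) per 5 Mb of chromosome 1, plotted by distance in Mb from the start of the window, which is coloured. The coloured bars stand at 50 and 20 sites, and the highest grey bars at 19 and 7.

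The windows were also compared over stronger peaks, as a description, since the hormone peaks include those on which the window was chosen. When only peaks with a fold of 5 or more were merged, a setting whose comparison across windows was chosen after the data were seen, 10 sites of the window were in all hormone lists. Other windows of chromosome 1 reached the same number in 2 cases, and the median was 3. In the solvent lists there were 5 such sites, with 4 in the next highest window. With peaks of p 1e-10 or less the numbers were 15 in all hormone lists, with 9 in the next highest window and a median of 2, and 7 in all solvent lists, with 2 in the next highest.

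Pairs of libraries shared a larger part of their sites in the window than in the upper flank. In the window a pair of hormone lists had 55 to 60 sites in common, which was 47.8% to 67.9% of the sites of a list. The 50 sites on which the window was chosen are among them, so the sharing between hormone lists is a description. A pair of solvent lists shared 26 to 37 sites (21.5% to 36.3% of a list), and a hormone and a solvent list shared 25 to 43 (21.5% to 42.9%). In the upper flank the same shares were 20.8% to 41.4%, 3.66% to 13.6% and 6.10% to 17.6%. In the sparse lower flank, 4 to 8 shared sites made up 12.9% to 77.8% of a list. Sites called in a single list were 262 (68.6%) of the window, against 82.8% in the lower flank, 87.8% in the upper flank and 89.8% of the background sites. Of these 262, 182 were in a solvent list and 80 in a hormone list. The single-list sites of the background were also mostly in a solvent list, 18967 against 7067 in a hormone list.

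The peaks were not spread evenly over the window. The first 0.25 Mb, up to 40250000, held 10 peaks in the 6 lists together, and the next 3 bins of this length held 55, 142 and 82. The bin from 40500000 to 40750000 was the fullest, with 23, 18 and 26 peaks in the hormone lists and 17, 26 and 32 in the solvent lists. Its 142 peaks compare with a median of 23.5 for the 20 bins of the window, and the fullest bins of the flanks held 22 and 43. A gap of 300858 bp, chr1:41765147-42066005, held no peak of any list.

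**Figure D2:**
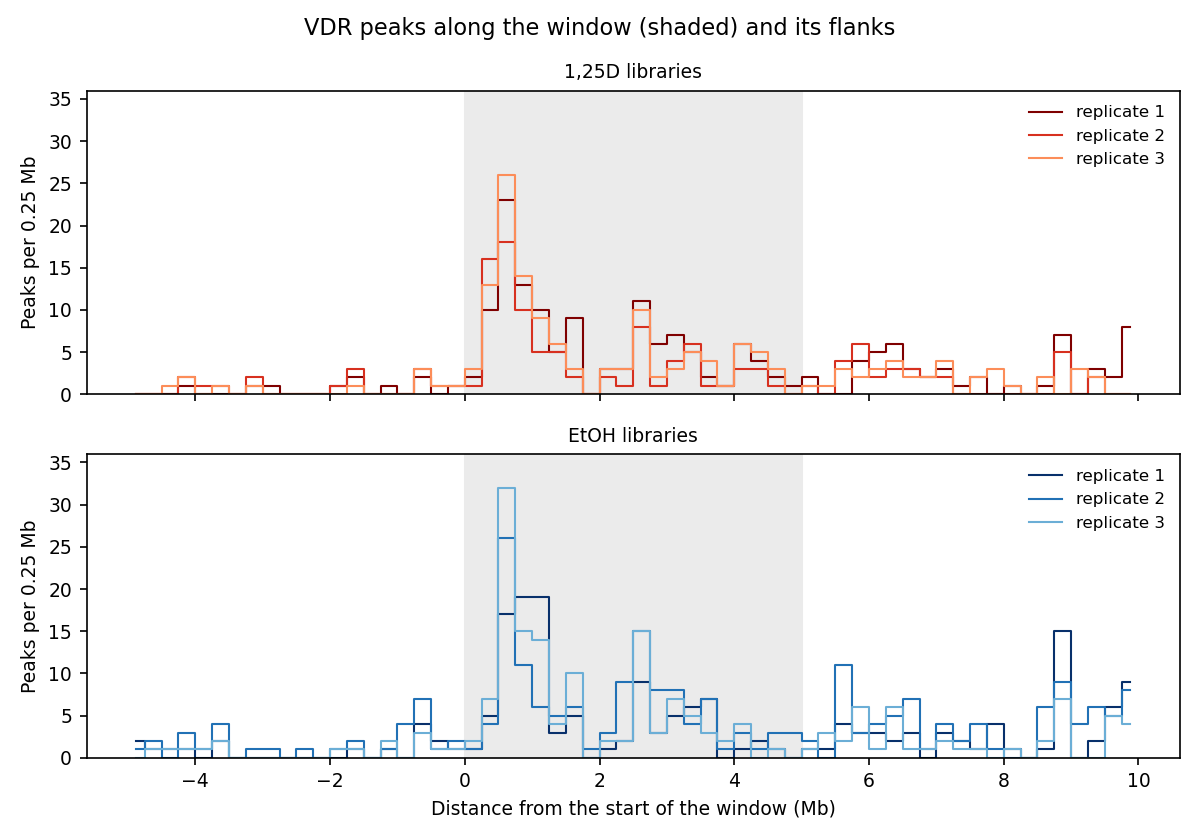
Number of peaks per 0.25 Mb in each 1,25D library (upper panel) and each EtOH library (lower panel) against the distance in Mb from the start of the window, which is shaded. All 6 libraries rise shortly after the start of the window, reach 17 to 32 peaks in the fullest bin, drop to 0 or 1 peak near 1.75 Mb, and rise again to 8 to 15 near 2.5 Mb.

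Stretches were then drawn along these bins, after the positions had been seen. The stretch from 40250000 to 41750000 held 204 sites, or 136 per Mb, and with them 28 of the 50 sites in all hormone lists and 15 of the 20 in all solvent lists. Its lists held 70, 56 and 71 peaks after 1,25D and 68, 58 and 82 after EtOH. From 42250000 to 43750000 there were 129 sites (86 per Mb), with 11 in all hormone lists and 4 in all solvent lists. From 43750000 to the end of the window there were 34 sites (27.2 per Mb), of which 8 were in all hormone lists and 1 in all solvent lists. These last 1.25 Mb had 14, 8 and 15 peaks in the hormone lists and 4, 11 and 7 in the solvent lists.

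Sites followed each other closely. The median gap between neighbouring sites of the window was 4186 bp, against 53200 bp in the lower and 8177 bp in the upper flank, and 85 gaps were shorter than 1000 bp. The 50 sites in all hormone lists were a median of 50746 bp apart. The shortest gap of all was 14 bp, between chr1:42531017-42531251 and chr1:42531265-42531508. A list had 2 peaks within 1 merged site at 20 of the 382 sites.

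A total of 14 sites were called in all 6 lists, 3.66% of the window's sites against a background of 1.03%. Among sites in all hormone lists, on which the window was chosen, they made up 28%, against 24.5% in the background. The highest was chr1:43031268-43032608, with folds of 17.1, 14.5 and 15.3 in the hormone lists and 11.0, 6.50 and 7.57 in the solvent lists. Every 1,25D fold there was above every EtOH fold. Next was chr1:41405208-41406025, with folds of 15.4, 11.4 and 11.4 after 1,25D and 11.9, 5.07 and 6.23 after EtOH, so that EtOH replicate 1 reached the level of 2 of the hormone lists. Behind these, chr1:40862106-40863944 was the longest site in all 6 lists at 1838 bp, with folds of 13.9, 8.29 and 10.6 against 7.87, 6.13 and 7.69.

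At chr1:40505333-40506274 the folds were 11.0, 8.30 and 9.26 after 1,25D and 4.91, 8.13 and 4.26 after EtOH. At chr1:44211534-44212220 they were 6.81, 9.72 and 10.1 after 1,25D and 5.33, 12.2 and 7.92 after EtOH, with the highest value in a solvent list. The sites chr1:42627514-42628502 and chr1:40691710-40692604 had mean folds of 6.13 ± 2.06 and 6.09 ± 1.37 in the hormone lists and 5.73 ± 1.25 and 5.65 ± 0.53 in the solvent lists (SD, n = 3 each). At both, the lists of the 2 treatments overlapped.

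The other 7 sites in all 6 lists were weaker. Mean 1,25D folds were 5.07 at chr1:40560252-40561355, 4.39 at chr1:40372935-40373541 and 3.48 at chr1:42533437-42534393. The last of these had a higher mean fold in the solvent lists, 4.19 ± 0.56 against 3.48 ± 0.47 (SD, n = 3), with overlapping values. At chr1:40509077-40509318, chr1:40341153-40341693, chr1:41176579-41177301 and chr1:40508359-40508946 the mean 1,25D folds were 3.02, 2.86, 2.58 and 2.21, and the mean EtOH folds were 2.73, 2.57, 2.57 and 2.19. These 4 were called in every library, and at each of them the hormone and solvent values overlapped.

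Folds come from separately processed lists, so the 14 sites were also ranked by fold within each list among the 298 sites found in all 6 lists over the shared part of the genome. None of the 14 ranked higher in every hormone list than in any solvent list, where the background share is 20.8%. Another 3 of the 14 ranked lower in every hormone list, 21.4% against a background of 24.2%, namely those starting at 40691710, 42533437 and 42627514. The first had mean ranks of 229 after hormone and 142 after solvent.

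Between these and the sites without an EtOH peak stood 19 sites in all hormone lists and in 1 or 2 solvent lists. The highest was chr1:44249125-44249920, with folds of 11.9, 10.4 and 14.1 after 1,25D, 5.20 and 3.75 in EtOH replicates 2 and 3 and no peak in replicate 1. It was followed by chr1:42679269-42679942, with 5.51, 6.47 and 11.2 after 1,25D and 3.21 in EtOH replicate 3 only. At chr1:41326086-41327010 the 1,25D folds were 7.35, 6.57 and 7.48 and those of EtOH replicates 2 and 3 were 5.06 and 3.43. At chr1:40805533-40806165 they were 7.43, 6.02 and 7.33, with 2.24 and 2.27 in EtOH replicates 1 and 3. In these 4 sites every 1,25D fold was above every listed EtOH fold. Mean 1,25D folds of 4.93 were found at both chr1:40265423-40266493 and chr1:43288080-43288417.

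A further 17 sites were in all hormone lists and in no solvent list, 4.45% of the window's sites against a background of 1.70%. The choice of the window on sites in all hormone lists raises this share. Among sites in all hormone lists, those in no solvent list made up 34% in the window and 40.4% in the background. The strongest was chr1:44318916-44319411, with folds of 7.33, 7.64 and 7.95, followed by chr1:44299911-44300361, with 5.30, 6.29 and 4.52, and chr1:41705936-41706449, with 4.65, 5.38 and 5.92. The site chr1:44506097-44506544 had folds of 5.19, 5.26 and 4.38. Mean folds reached 5 at 3 of these sites and 10 at none.

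Of the 17 hormone-only sites, 9 were in the densest stretch, with a median mean fold of 2.76. That stretch also held 204 of all 382 sites, so the 9 are no concentration of hormone-only sites. The final stretch of the window held 5 of the 17 and 34 of all sites, with a median of 4.94. There, 5 sites in all hormone lists stood within 72090 bp, chr1:44247321-44319411. They were the site of fold 12.1 ± 1.87 at 44249125 and 4 sites with no EtOH peak, at gaps of 1152 to 35916 bp. The remaining 5 sites of this short span were in 1 or 2 lists each.

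**Figure D3:**
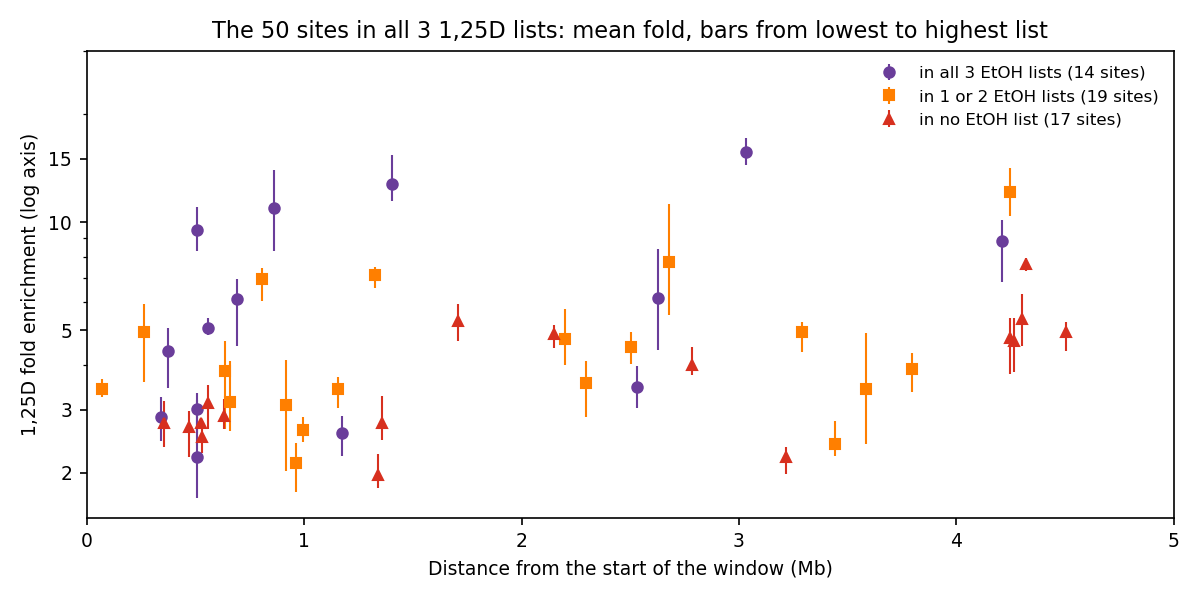
Fold enrichment of the 50 sites in all 3 hormone lists (log axis) against the distance in Mb from the start of the window. Points are means of the 3 hormone lists, bars run from the lowest to the highest list, and shapes give the number of solvent lists with a peak: 14 sites in all 3, 19 in 1 or 2 and 17 in none. The hormone-only sites are near or below a fold of 3 in the first 1.4 Mb and reach 7.64 beyond 4 Mb.

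Of the 382 sites, 193 were in solvent lists only and 108 in hormone lists only. Among the 28993 background sites these numbers were 19271 and 8195, so solvent-only sites were the more numerous there too. A total of 3 sites were in all solvent lists and no hormone list, 0.785% of the window's sites, against a background of 0.0379% that rests on 11 sites. They were chr1:41406251-41407259, with folds of 4.30, 6.26 and 2.18, chr1:40668156-40668554, with 3.22, 2.42 and 2.67, and chr1:40897247-40897791, with 2.40, 2.76 and 2.09. The first began 226 bp after the site at 41405208 that was called in all 6 lists. Such counts of 3 rest on few sites, and they were 4, 5 and 6 when EtOH replicate 1, 2 or 3 was left out. With fewer solvent lists required, apart from changes in merging this count could only stay or rise.

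The folds of the window were low for their p-values. Its median fold was 3.11, 2.74 and 2.82 in the hormone lists and 2.92, 2.94 and 2.68 in the solvent lists, and in each of the 6 lists it was the lowest of the 47 windows of chromosome 1. In the upper flank the medians were 3.64, 3.36 and 3.45 and 3.83, 3.27 and 3.01. Folds were uneven along the window. Over the peaks of all 6 lists together, the median was 2.58 in the densest stretch, from 40250000 to 41750000. It was 3.35 before that stretch, 3.48 from 41750000 to 42250000 and 3.18 from 42250000 to 43750000. From 43750000 to the end it was 3.78, with 4.07, 5.85 and 4.38 in the hormone lists and 3.32, 3.15 and 2.91 in the solvent lists. Peaks with a fold under 2.5 made up 22.0%, 34.1% and 33.6% of the window's peaks in the hormone lists, against 1.49%, 4.38% and 4.28% over chromosome 1. In the solvent lists they made up 25.5%, 20.8% and 39.8%, against 3.02%, 6.66% and 3.86%. Seen from the chromosome, the window held 77.1%, 48.4% and 55.6% of all such low peaks of the hormone lists and 34.6%, 8.47% and 50% of those of the solvent lists. The smallest share was again that of EtOH replicate 2.

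The comparison was repeated for peaks of like significance, with p from 1e-04 to 0.001. In the window their median folds were 2.63, 2.46 and 2.45 in the hormone lists (29, 23 and 31 peaks) and 2.52, 2.89 and 2.58 in the solvent lists (26, 47 and 52 peaks). On the rest of chromosome 1 they were 3.18, 3.23 and 3.32 and 3.15, 3.16 and 3.21. Of the window's peaks in this range, 66.0% to 93.5% per list lay under the 5th percentile of the rest of the chromosome. The flanks, with 5 to 47 such peaks per list, had medians of 3.14 to 3.23. In this range of p-values the median peak of the window had a lower fold than that of the rest of the chromosome in all 6 lists. How many reads lie behind these peaks, the level of the background there and the copy number of the region in these cells were not tested.

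**Figure D4:**
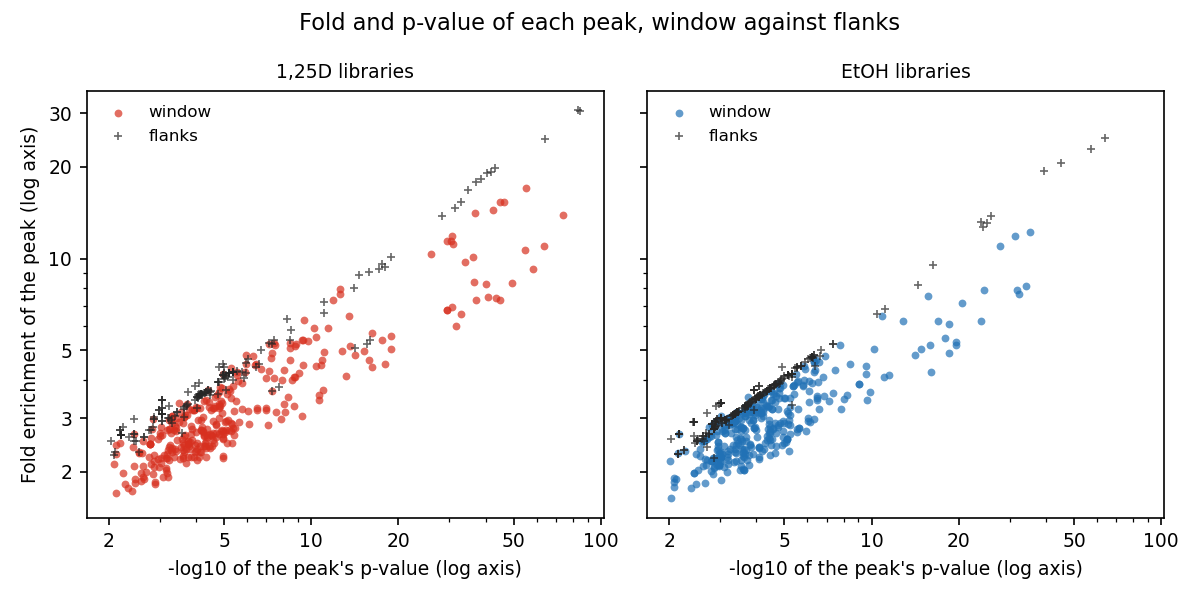
Fold enrichment of each peak (log axis) against -log10 of its p-value (log axis) for the 1,25D libraries (left) and EtOH libraries (right). Coloured circles are peaks of the window and crosses are peaks of its flanks. At a given p-value most circles lie below the crosses, for weak and for strong peaks and in both treatments.

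The low folds also show in the recurrent sites. Of the 50 sites in all hormone lists, 15 (30%) had a mean fold of 5 or more, against 61.5% of such sites over the shared part of the genome. Mean folds under 3 were found at 14 of the 50 (28%), where the background share is 1.81%, or 22 sites, so the window held 14 of those 22. Among hormone-only sites the background held 11 with a mean fold under 3 (2.24%), of which 8 lay in the window. The folds of these sites follow in part from how the window was chosen, and they are given as a description.

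Between treatments the median folds of the window's peaks overlapped. The mean of the library medians on the log2 scale was 1.53 in the hormone lists and 1.51 in the solvent lists, a difference of 0.02. With the mean of log2 folds in place of the median the difference was 0.15, and every hormone list lay above every solvent list. These peaks include those of the 50 sites in all hormone lists, on which the choice of the window rests, so no p-value is given and the comparison of treatments is a description. At a fold of 5 or more the hormone lists held 15, 18 and 18 peaks in the window and the solvent lists 6, 10 and 5, without overlap. These were 12.2%, 20.5% and 15.1% of the window's peaks against 14.5%, 22.5% and 20.3% over the shared part of the genome, and 5.66%, 8.00% and 3.91% against 5.39%, 2.57% and 3.32%. In the 3 hormone lists and in EtOH replicates 1 and 3 the share of strong peaks was thus near or below that of the list, and in EtOH replicate 2 it was above.

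At the limits of the window the sites were sparse. The first 3 inside were chr1:40006881-40007043, in 1,25D replicate 3 only, chr1:40068488-40068796, in 5 lists with folds of 2.99 to 3.66, and chr1:40170124-40170268, in EtOH replicate 3 only. Just outside lay chr1:39995890-39996356, in all hormone lists (5.10, 5.41 and 5.26) and in EtOH replicates 2 and 3 (3.31 and 2.21). At the upper limit the last 3 sites inside were in 1 list each, with folds of 2.99 to 3.14. The nearest site in all 6 lists beyond it was chr1:45148673-45149637, with folds of 9.25, 8.03 and 9.40 after 1,25D and 4.46, 6.84 and 6.59 after EtOH.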

How the data were processed

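VDR ChIPmentation peak lists from THP-1 cells were used, 3 per treatment. An input library was not analysed here. The authors worked with Bowtie 1.1 and MACS2 on hg19, per the submitters' processing notes, and the MACS2 version and settings, any use of the input and any removal of duplicates are not stated there. Peaks were called in each library on its own. The fold enrichment is a ratio over background that the authors deposited, per the file headers, and the p-value is likewise the authors', per the file headers. Coordinates are printed as listed, since whether starts count from 0 or 1 is not stated.

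Incomplete last lines of 3 lists were left out. Peaks with a start from 40000000 to 45000000 on chromosome 1 that overlapped by 1 bp or more formed 1 site, and the highest fold of a list was taken at each site. The background is the 28993 sites of chromosomes 1 and 10 to 15 and of chromosome 16 up to 50293713, which all 6 lists cover. The EtOH peak numbers were tested over libraries by exact sign flips (a permutation test, two-sided). The test planned between treatments on the median fold is not reported, since its hormone peaks include those behind the choice of the window. Named sites were all those in every list, the 10 other sites in all hormone lists with the highest mean fold, those in all EtOH and no hormone lists, and the 3 nearest each limit, and other sites were chosen after their values were seen. Window, lists and members were chosen with earlier results of these data known. Alternatives were peaks of fold 5 or more, 1 highest p, 50% overlap, a window moved by 0.5 Mb, single flanks, left-out libraries and the replicate number as a block. The gene and promoter tables are of RefSeq GRCh38.p14 and were used for names, order and sequence only. Merging was tested on simulated lists. No columns of other samples were used (0 columns). Python 3.11.15, numpy 2.4.6, pandas 2.3.3 and matplotlib 3.10.9 were used.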

Additional observations from a re-analysis of the deposited data

How the results depend on the processing

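With peaks under a fold of 5 dropped before merging, the sites in all hormone lists numbered 10 in place of 50, those in all 1,25D and no solvent lists 3 in place of 17, those in all 6 lists 4 in place of 14 and those in all EtOH and no hormone lists 0 in place of 3, since fewer peaks were merged. Without 1 library at a time the numbers ranged from 50 to 59, from 19 to 23, from 14 to 19 and from 3 to 6. Leaving out a list relaxes the rule of membership, so apart from changes in merging these counts could only stay or rise. The difference in median fold ranged from -0.034 to 0.057 on the log2 scale, with a negative sign without 1,25D replicate 1 or EtOH replicate 3, and the excess of EtOH peaks over the flanks from 1.30 to 1.79. With 1 highest p, 50% overlap or a moved window, each site count stayed within 1.5 times its value. The EtOH excess stayed positive under all 9 alternatives (exact permutation p of 0.25, or 0.50 with 1 library left out). Each p was the smallest possible for its number of libraries, as it is whenever all ratios share a sign. The window was chosen on sites that the solvent lists share in part, so the positive sign is a description. At a fold of 5 or more the window had the highest number of sites in all hormone lists on chromosome 1, tied with 2 others. At p 1e-10 or less it had the highest alone. These subsets come from the hormone lists on which the window was chosen, so its rank is a description and no support for the choice. With the replicate number as a block, the difference in median fold was 0.020. Each block holds 1 library of each treatment, so this setting could not change the difference. The numbers share no stated origin: deviations at the 298 shared sites correlated at 0.09, 0.00 and -0.02 between same-numbered libraries, and not every library correlated best with its own number. Depth is unknown, so no site can be called absent from a library.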
